A study of Mus musculus with 11 samples.

Results

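The genes examined here are 10 peptide and prohormone genes, taken by symbol from the 24421 entries listed for each sample. They comprise 7 neuropeptide precursors (Npy, Penk, Pdyn, Cck, Sst, Tac1 and Vip), angiotensinogen (Agt) and 2 granins (Scg2 and Chgb). Npy and Penk were selected on their measured values, high in the olfactory bulb for Npy and low in the hippocampus for Penk, so both are described without a test. RNA came from 16-week-old Aldh1l1-eGFP mice on a C57BL/6 background, in which a BAC transgene places eGFP under the control of Aldh1l1, a gene of astrocytes. The sorted eGFP-positive cells of the olfactory bulb (OB, 3 samples), hippocampus (HC, 3), cortex (CX, 2) and brainstem (BS, 3) were compared. All groups carried the transgene and none was treated, so that a sort took whatever cells were eGFP-positive in that region. The sources used here do not give the number of mice per sample, and p-values therefore rest only on the spread between these samples, which may be technical. Where a region was set against the others pooled, that spread also holds the differences among the pooled regions.

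Neuropeptides are made as long precursors that prohormone convertases cut and carboxypeptidases trim, and they are stored with granins in dense-core vesicles. Most are known as products of neurons. Angiotensinogen is the substrate from which renin and angiotensin-converting enzyme release angiotensins, and astrocytes are its main source in brain. Astrocytes also carry receptors for several peptides.

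Each value is a read count divided by a size factor of its sample, called the normalized value below. Between 2830746 and 14151670 reads per sample fell on genes (median 5552215). A floor of 3 reads corresponded to a normalized value between 1.1 and 6.31, depending on the sample, and this floor, like the intervals below, covers counting error only. All 8 astrocyte markers checked (Aldh1l1, Slc1a2, Slc1a3, Gfap, Aqp4, Aldoc, Gja1 and Sox9) had reads in every region, and their summed value ran from 93288 in a BS sample to 630026 in a CX sample.

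**Figure D1:**
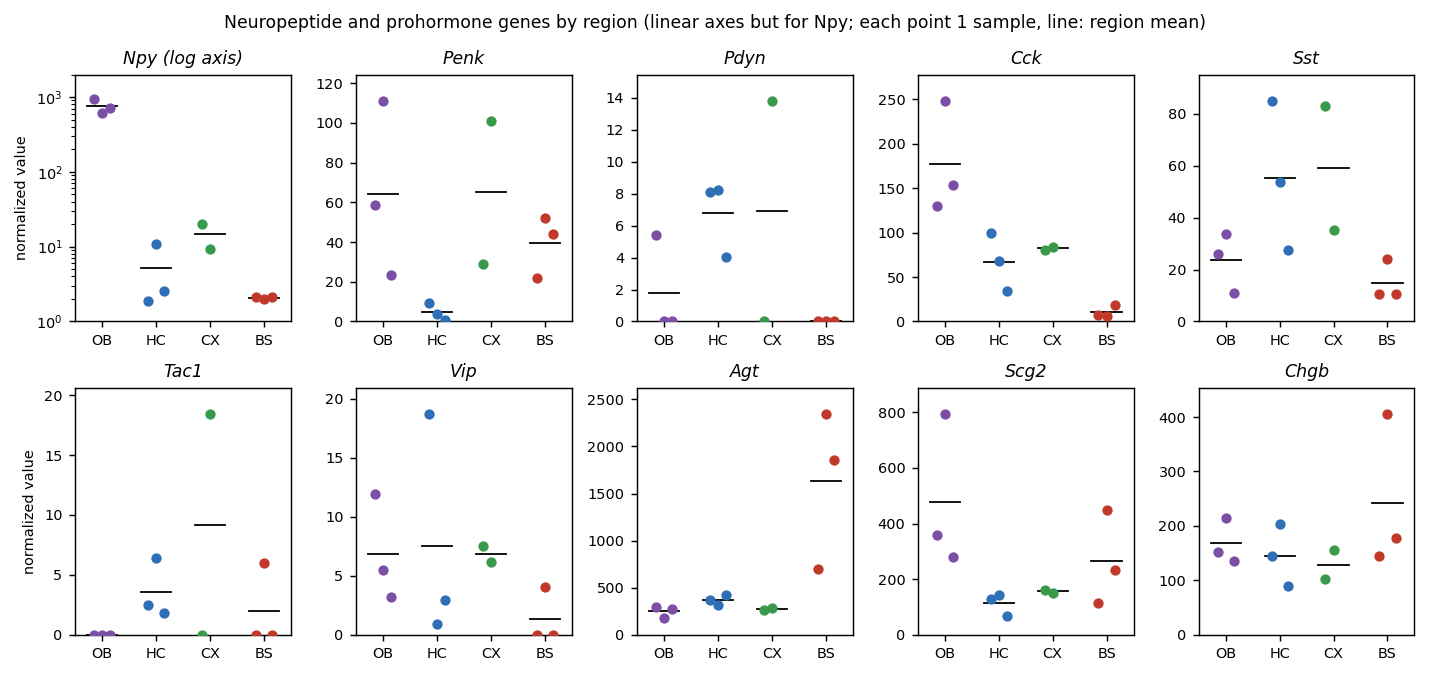
Normalized value of each of the 10 genes in every sample, by region; the vertical axis is linear except for Npy, which has a log axis, and lines mark region means. Npy lies between 607 and 936 in the OB and at or below 20.1 elsewhere, while Agt lies between 701 and 2342 in the BS and at or below 419 elsewhere.

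Npy (GRCm38 chromosome 6, 49822710 to 49829507) encodes neuropeptide Y, which is made by inhibitory neurons and also by olfactory ensheathing cells, the glia that wrap olfactory axons. Its normalized value was 936, 607 and 719.6 in the 3 OB samples. The hippocampal samples had 1.87, 11 and 2.57, the cortical samples 20.1 and 9.20, and the brainstem samples 2.10, 2.0 and 2.10. The OB samples stood apart from all others, whereas CX and HC overlapped, as did HC and BS. The OB mean was 754 ± 167 (SD, n = 3), 51.3 times the CX mean of 14.7 ± 7.71 (SD, n = 2), the next in order. On the log2(value + 1) scale the OB exceeded the mean of the other samples by 7.09.

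The low Npy levels rest on few reads, 22 for the HC, 22 for the CX and 4 for the BS, against 2967 for the OB. The ratio of pooled reads per depth, OB to BS, was 353, with a 95% exact interval of 138 to 1297. Against the CX it was 48.3 (31.8 to 77.2) and against the HC 181 (119 to 289). The interval for the BS was the widest, since only 4 reads lie behind it. These intervals leave out the spread between samples, and since Npy was selected on its OB level they are no test.

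Most markers of olfactory ensheathing cells were also highest in the OB. The summed value of 7 of them (Frzb, Ngfr, Prss56, Foxd3, Matn2, Sox10 and Fabp7) was 13484 to 17801 in the OB, and 741 to 1446 across the other samples. Fabp7, which astrocytes and neural progenitors also express, made up 91.2% to 92.7% of the OB sum. Without Fabp7 the sum was 1192 to 1291 in the OB and at most 361 elsewhere, in a BS sample. All 7 had reads in the OB, while Prss56 and Foxd3 had none in the HC, Foxd3 none in the CX, and Prss56 none in the BS. For 5 of the 7 (Frzb, Ngfr, Foxd3, Sox10 and Fabp7) every OB sample exceeded all others. Frzb, a secreted Wnt antagonist, had 767, 642 and 712 in the OB and at most 27.4 elsewhere. Matn2 overlapped, with 65.7 to 180.3 in the OB but 216 in HC sample 1 and 287 in BS sample 1, and Prss56 was higher in CX sample 2 (24.5) than in OB sample 1 (18.5).

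Per 1000 units of the 7 summed markers, a scale chosen after seeing the data, Npy was 52.6, 45.0 and 46.2 in the OB samples and 1.59 to 17.0 in the others. Since Npy was selected on its OB level, these ratios are a description only. Without Fabp7 in the sum, the ratio was 509 to 725 in the OB and 5.83 to 205 elsewhere. Markers of some neurons, though not the general neuronal list, were highest in the OB as well. The 10 general neuronal markers summed to 1604 to 3058 in the OB and to 2765 to 3993 in the BS, with none of the 10 apart in the OB. The summed value of 8 markers of inhibitory neurons was 691 to 974 in the OB and at most 369 elsewhere, with 6 of the 8 apart from all other samples. Of the other two, Slc32a1 overlapped (31.2 to 76.6 in the OB, up to 52.1 in the BS) and Lhx6, a gene of cortical interneurons, had no read in the OB. The sum of 6 markers of olfactory sensory neurons was 313 to 607 in the OB and at most 77.9 elsewhere, with 4 of the 6 apart. The share of all genes that stood apart in the OB in this way was not determined. Nothing is therefore read from these counts, nor from that of the ensheathing cell markers. The part of ensheathing cells and of these neurons in the Npy level was not tested. In bulk RNA fewer cells of a type and less RNA per cell cannot be told apart.

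**Figure D2:**
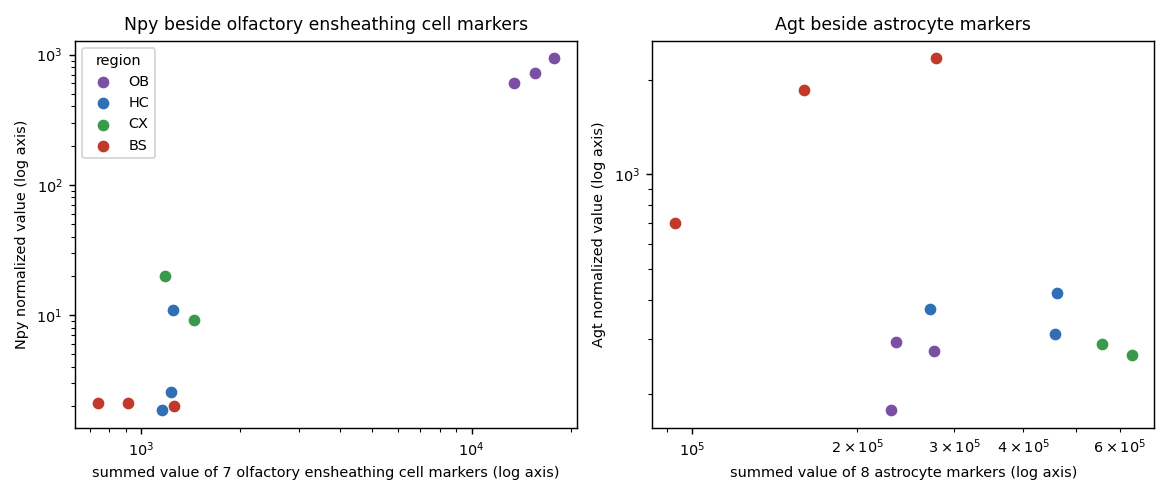
Left, normalized value of Npy against the summed value of 7 olfactory ensheathing cell markers; right, Agt against the summed value of 8 astrocyte markers; each point is 1 sample coloured by region, and all axes are log axes. The 3 OB samples stand apart on both axes on the left, and the 3 BS samples lie above all others for Agt on the right.

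The 5 genes whose log2 values followed Npy most closely over the 11 samples were Col7a1 (Pearson r = 0.972), Pla2g16 (0.969), Fabp7 (0.964), Stoml3 (0.964) and Omp (0.962). The samples share their regions and libraries, so these values describe the pattern only. Omp and Stoml3, genes of olfactory sensory neurons, had OB means of 157 and 105 and no read in the HC or BS. Col7a1, a collagen, was low, with 9.77, 7.11 and 9.16 in the OB and at most 1.26 elsewhere. Pla2g16, a phospholipase, was abundant in every region, with a mean of 2611 in the OB and of 1194 in the BS.

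Penk (chromosome 4, 4133531 to 4138819) is the precursor of the enkephalins, which act on opioid receptors. Its values were 9.37, 3.65 and 0.734 in the HC samples, from 15, 4 and 2 reads. The OB samples had 58.6, 111 and 23.2, the CX samples 28.9 and 101, and the BS samples 22.1, 52.1 and 44.2. Each hippocampal sample lay below each of the 8 other samples, while CX, OB and BS overlapped and did not differ beyond their spread. The BS mean, 39.5 ± 15.6 (SD, n = 3), was 8.61 times the HC mean of 4.59 ± 4.39 (SD, n = 3). The ratio of pooled reads to the HC was 9.12 for the BS (exact interval 5.52 to 15.7), 15.1 for the OB (9.67 to 24.9) and 15.9 for the CX (9.78 to 26.9). These intervals cover counting error and not the spread between samples. Since Penk was selected on its HC level, they are no test. On the log2(value + 1) scale the HC minus the other samples was -3.45.

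Grm4, a metabotropic glutamate receptor, had the pattern most like that of Penk (r = 0.944 over 11 samples). Its values were 5.00, 0.913 and 1.1 in the HC samples, 22.8, 45.0 and 16.2 in the OB samples, 7.54 and 29.1 in the CX samples and 6.31, 36.1 and 16.8 in the BS samples. Within the OB, CX and BS the sample with the most Penk also had the most Grm4. Scube1 (0.903), Klhl29 (0.882), Klhl15 (0.881) and Sgsm1 (0.881) followed, each with its lowest region mean in the HC. The summed markers of inhibitory neurons, some of which express Penk, ranged from 71.2 to 182 in hippocampal samples, from 142 to 210.1 in cortical samples and from 189 to 369 in brainstem samples, and the OB range was that given for Npy. Their part in the Penk level was not tested.

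For the remaining members each region was set against all samples of the other regions by limma on log2(value + 1). Genes counted as called where the unadjusted p was below 0.01, the fold change above 1.5 and the value above 5 in 2 or more replicates of some region. The thresholds follow the rule of the study, except that its minimum level is stated as RPM, reads scaled to the depth of the sample, and is a looser limit when applied to the normalized value. Of the 10 members 8 passed the filter on low counts, and 6 of them were tested (Agt, Scg2, Chgb, Cck, Sst and Vip), since Npy and Penk were not and Pdyn and Tac1 had too few reads. In the BS 2 of 6 were called, where 9.03% of all 13875 genes tested were. Agt was higher, as were 3.98% of all genes, and Cck was lower, as were 5.05%. Cck reached the low-count filter only through samples outside the BS, so nothing is read from the BS count. In the OB 1 of 6 was called, against 8.04% of all genes. This was Scg2, which was higher, as were 4.15% of all genes, and no member was lower, as were 3.89%. With the minimum in RPM, an alternative added after seeing the data, the same members were called. None was called in the HC or the CX, where 1.28% and 2.77% of all genes were.

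At an unadjusted p below 0.05 the limma count was 1 in the HC (Scg2) and 0 in the CX, and edgeR called 0 in both while DESeq2 called 1 in the HC and 0 in the CX. With the adjusted p below 0.05 in place of the unadjusted, limma called Agt and Cck in the BS (5.31% of all genes) and no member in the OB (4.54%), HC (0%) or CX (0.0144%). An F test among the 4 regions had an adjusted p below 0.05 for 3 of the 6 (Cck, Agt and Scg2) and for 16.5% of all genes.

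**Figure D3:**
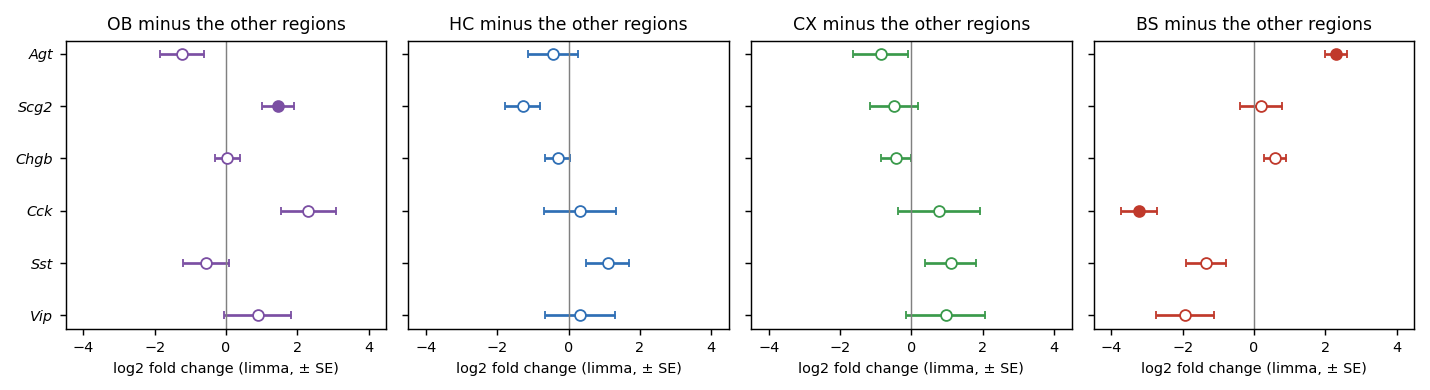
Log2 fold change of each region against the other regions pooled for the 6 members tested, with limma's standard error; filled points passed the calling rule and open points did not. The filled points are Scg2 in the OB at 1.45, Agt in the BS at 2.31 and Cck in the BS at -3.22. Cck reached the low-count filter only through samples outside the BS.

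Cck (chromosome 9, 121489824 to 121495694), the precursor of cholecystokinin, is a peptide gene of many cortical and hippocampal neurons. Its values were 7.36, 6.01 and 18.9 in the BS samples, from 19 reads in all. The OB samples had 130.3, 248 and 154, the HC samples 99.3, 68.5 and 34.5, and the CX samples 80.4 and 84.3. All BS samples lay below, and all OB samples above, those of the other regions, while CX and HC overlapped. In the BS it fell by 3.22 on the log2 scale (standard error 0.50, adjusted p = 0.001866 from limma), a 9.33-fold lower level. Its BS reads alone would not have passed the low-count filter, so Cck entered the filtered tests only through the regions where it was high. Nothing is read from the p-values of those tests, here or under the alternatives below. Without that filter it was called too (adjusted p = 0.002386 from limma). The call was made under every alternative to the test, with adjusted p between 1.028e-06 and 0.01657 (limma, edgeR and DESeq2).

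In the OB the log2 fold change of Cck was 2.31 (standard error 0.78, unadjusted p = 0.01051, adjusted p = 0.1233 from limma), which missed the rule. It was called by edgeR (adjusted p = 0.1162), by DESeq2 (adjusted p = 0.06432), with a mean for each region (adjusted p = 0.002373 from limma), and without HC sample 1, HC sample 2 or either CX sample.

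Relative to the summed astrocyte markers the order of Cck changed. It was 0.553, 1.08 and 0.557 per 1000 units in the OB samples and at most 0.366 elsewhere (two-sided exact permutation p = 0.006061, adjusted p = 0.02909 over 24 comparisons of such ratios). Ratios of Cck were chosen after seeing its values, in which every OB sample already lay above, and every BS sample below, all others. An exact permutation p of 0.006061 is the smallest that 3 against 8 samples allow, and adds nothing to that separation. The BS samples had 0.0789, 0.0216 and 0.118 (exact permutation p = 0.03636, adjusted p = 0.1454). They overlapped with the HC samples but lay below both CX samples (0.128 and 0.152). Per 100 units of Aldh1l1 the BS was again apart, with 0.478 to 2.88 against 3.76 to 26.3 elsewhere (exact permutation p = 0.006061, adjusted p = 0.02909), and the OB was not (exact permutation p = 0.05455, adjusted p = 0.1637). Slc17a7, the vesicular glutamate transporter of excitatory forebrain neurons, was at most 21.0 in the BS and at least 56.5 in all other samples. Of the other neuronal markers, Rbfox3 and Syt1 were also lower in every BS sample than in all others. Nefl, Nefm and Stmn2 went the other way, with every BS sample above all others. The 10 neuronal markers together summed to 2765 to 3993 in the BS and to between 1336 and 3058 elsewhere, and all 10 had reads in every region. The part of neuronal RNA in the Cck level was not tested.

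Sst (chromosome 16, 23889573 to 23890958) encodes somatostatin, an inhibitory peptide of interneurons. Its values were 85.0, 53.9 and 27.5 in the HC samples and 82.9 and 35.3 in the CX samples. The OB samples had 26.1, 33.9 and 10.8 and the BS samples 10.5, 24.0 and 10.5. Region means ran in the order CX, HC, OB and BS, and all neighbours in that order overlapped. Regions further apart in it did not all overlap. Every BS sample lay below all HC and CX samples, and both CX samples lay above all OB samples. No contrast was called, the smallest p being that of the BS (log2 fold change -1.36, standard error 0.56, unadjusted p = 0.03021, adjusted p = 0.1801 from limma). Among the alternatives it was called in that contrast only without OB sample 3 (adjusted p = 0.08159 from limma).

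Vip, Pdyn and Tac1 lay near the detection floor. Vip (chromosome 10, 5639218 to 5647617), which encodes vasoactive intestinal peptide, had 11.9, 5.53 and 3.23 in the OB samples, 18.7, 0.913 and 2.94 in the HC samples, 7.54 and 6.13 in the CX samples, and 2 reads in 1 of the BS samples. The CX and BS samples did not overlap, but no contrast was called, and the smallest unadjusted p was 0.03367 (BS, adjusted p = 0.1908 from limma). Pdyn (chromosome 2, 129686565 to 129699844), the precursor of the dynorphins, had 8.12, 8.22 and 4.04 in the HC samples. It had reads in 1 CX sample (value 13.8) and in 1 OB sample (5.43), and 0 reads in the BS, where a count of 0 allows a value of up to 6.31 in the shallowest sample. The HC contrast of Pdyn had an exact permutation p of 0.04848 (two-sided, adjusted p = 0.3879 over 8 comparisons). Tac1 (chromosome 6, 7554879 to 7565834), the precursor of substance P, had 2.5, 6.39 and 1.83 in the HC samples, reads in 1 CX sample (18.4) and in 1 BS sample (6.01), and 0 reads in the OB. Its smallest exact permutation p was 0.1636, and regional differences of Pdyn and Tac1 were not detectable at this depth.

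Agt (chromosome 8, 124556534 to 124569706) had the highest mean of all members in the BS. Its values were 701, 2342 and 1856 in the BS samples. The OB samples had 293, 178 and 274, the HC samples 373, 311 and 419, and the CX samples 266 and 288. The BS samples were all above the others, though they spread widely among themselves, while HC and CX did not overlap and CX and OB did. Region means were 1633 ± 843 (SD, n = 3) for the BS, 368 ± 54.1 (SD, n = 3) for the HC, 277 ± 15.5 (SD, n = 2) for the CX and 248 ± 62.0 (SD, n = 3) for the OB. The BS had a log2 fold change of 2.31 (standard error 0.31, adjusted p = 0.0006718 from limma), a 4.95-fold higher level. It was called under every alternative, with adjusted p between 8.123e-12 and 0.009031 (limma, edgeR and DESeq2).

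The BS samples with less Agt also had less RNA of astrocyte markers, whose sums were 93288, 277780 and 159991 in BS samples 1 to 3. Slc1a2, a glutamate transporter, supplied 66.2% to 86.0% of this sum across all samples. Per 1000 units of the sum, Agt was 7.52, 8.43 and 11.6 in the BS samples and 0.423 to 1.38 in the others. On this scale, chosen after seeing the data, the BS was apart from all other samples (two-sided exact permutation p = 0.006061, the smallest that 3 against 8 samples allow, adjusted p = 0.02909). Per 100 units of Aldh1l1, Agt was 112 to 283 in the BS and 18.8 to 68.8 elsewhere, with the same exact p.

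Markers of other cells differed in the BS as well. The 8 oligodendrocyte markers summed to 52260.4 to 89909 in the BS and to between 9501 and 39771 elsewhere. The 6 choroid plexus markers, led by Ttr, summed to 241339, 51112 and 117355 in BS samples 1 to 3 and to 71372 to 144194 in hippocampal samples. The part of oligodendrocytes and of choroid plexus cells in the Agt level was not tested.

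The 5 genes most like Agt over the 11 samples were Wnt8b (r = 0.968), B230323A14Rik (0.964), Hoxd3 (0.962), Hoxa3 (0.959) and Usp53 (0.95). Hoxd3 and Hoxa3, homeobox genes of the hindbrain and spinal cord, had no read outside the BS. Hoxa3 had 6.31, 30.1 and 35.8 in the BS samples, and Wnt8b, a Wnt ligand, 7.36, 80.1 and 27.4. The BS sample with the least Agt also had the least of both.

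The promoters of Npy and Agt, the members with the highest mean per kilobase in the OB and in the other regions, are shown as the 100 bases before the RefSeq start (GRCm38.p6), 5′ to 3′ on the strand of the gene. Capitals mark the letters TATAAA, the core of a TATA box.
Npy, chr6:49822610-49822709, plus strand: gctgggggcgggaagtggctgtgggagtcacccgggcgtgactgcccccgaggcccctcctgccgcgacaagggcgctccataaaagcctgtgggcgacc
Agt, chr8:124569707-124569806, minus strand: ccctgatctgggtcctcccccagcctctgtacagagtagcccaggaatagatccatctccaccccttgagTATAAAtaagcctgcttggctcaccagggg
The letters began 30 bases before the start of Agt and did not occur within 250 bases before Npy, and 7.59% of all 32851 promoter windows of that length held them on the sense strand.

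The granins are acidic proteins of the dense-core vesicle. Scg2 (chromosome 1, 79434669 to 79440120), the precursor of secretoneurin, had 359, 793 and 279.6 in the OB samples and 115, 447 and 234 in the BS samples. The HC samples had 127, 142 and 68.6 and the CX samples 162 and 150.3. OB and BS overlapped, as did BS and CX, and CX lay above HC. The OB had a log2 fold change of 1.45 (standard error 0.45, unadjusted p = 0.005745, adjusted p = 0.08835 from limma), a 2.74-fold higher level.

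Single samples decided this call. It was lost without OB sample 1 (adjusted p = 0.1892), OB sample 2 (log2 fold change 1.01, adjusted p = 0.4331) or HC sample 1 (adjusted p = 0.1264), all from limma. The F test for Scg2 (adjusted p = 0.02772 from limma) lost its call without OB sample 1, OB sample 2, HC sample 3, CX sample 1 or BS sample 3. Per 1000 units of the summed astrocyte markers, Scg2 was 1.01 to 3.44 in the OB and reached 1.61 elsewhere (exact permutation p = 0.09091, adjusted p = 0.1983).

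Chgb (chromosome 2, 132781278 to 132795079), chromogranin B, was the most even of the abundant members. The OB samples had 152, 215 and 136, the HC samples 144, 204 and 88.8, the CX samples 102 and 156 and the BS samples 144, 405 and 177. All neighbours in the order of means overlapped. No contrast was called, and the largest difference, in the BS, was 0.59 on the log2 scale (standard error 0.32, adjusted p = 0.312 from limma).

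The ratio of Scg2 to Chgb within a sample, chosen after seeing the data, was 2.36, 3.69 and 2.06 in the OB samples. It was 0.883, 0.695 and 0.773 in the HC samples, 1.59 and 0.961 in the CX samples, and 0.796, 1.1 and 1.32 in the BS samples. The OB samples lay above all others (two-sided exact permutation p = 0.006061, adjusted p = 0.02909). The HC samples were low but overlapped with the BS (exact permutation p = 0.04848, adjusted p = 0.1637). Markers of inhibitory neurons had their highest sums in the OB, as given for Npy, and their part in the ratio was not tested.

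**Figure D4:**
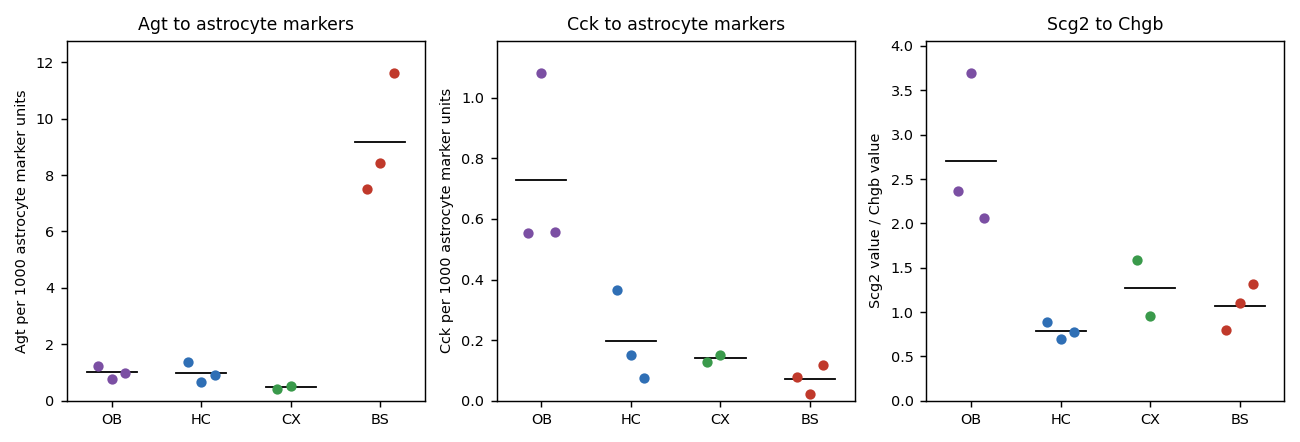
Ratios within each sample by region, on linear axes, with lines at region means: Agt and Cck per 1000 units of the summed astrocyte markers, and Scg2 over Chgb. Agt reaches 7.52 to 11.6 in the BS, Cck 0.553 to 1.08 in the OB, and Scg2 over Chgb 2.06 to 3.69 in the OB.

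The promoters of Scg2, Chgb and Sst share the letters TGACGTCA of the cyclic AMP response element, which CREB-family factors bind in many peptide genes. They occurred within 250 bases before the RefSeq start of 3 of the 9 members with a promoter entry, and in 1.55% of all 32851 windows (both strands, the letters being their own reverse complement). The windows below, with these letters in capitals, set the shared element beside the regional levels of the 3 genes.
Scg2, chr1:79440076-79440105, minus strand: ggctgagccggTGACGTCAgcgtggaatgc
Chgb, chr2:132781559-132781588, plus strand: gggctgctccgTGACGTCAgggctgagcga
Sst, chr16:23890874-23890903, minus strand: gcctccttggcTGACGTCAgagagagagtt
The element began 68 bases before the start in Scg2, 72 in Chgb and 48 in Sst. These are RefSeq starts, and the GENCODE starts of the 3 genes differ from them. All 3 windows lie inside the GENCODE spans given above for the genes. The letters TGACG, which the full element contains, occurred on either strand in Cck, Vip and Tac1 too and in 17.8% of all windows. Scg2 had its highest mean in the OB, Chgb in the BS and Sst in the CX. For each gene the samples of that region overlapped with those of the region next in order. The limma F test among regions had an adjusted p of 0.02772 for Scg2, 0.4831 for Chgb and 0.1006 for Sst. Penk has no entry here.

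Several members peaked in the same library. BS sample 2 had the highest BS value for 7 of the 9 members with reads there, and BS sample 1 for none. OB sample 2 was highest for 5 of 9 in the OB (Penk, Cck, Sst, Scg2 and Chgb). The share of all genes that were highest in these samples was not determined, so nothing is read from these counts. BS sample 2 had the highest astrocyte marker sum and the lowest choroid plexus sum of the BS samples.

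Per kilobase of exon, a scale on which genes can be compared, Npy led in the OB with a mean of 1333, ahead of Scg2 at 189.8, Cck at 153 and Agt at 131. Agt led elsewhere, with 195 per kilobase in hippocampal, 147 in cortical and 864 in brainstem samples. Sst came second in the HC and CX, at 76.9 and 82.0 per kilobase, and Scg2 second in the BS, at 105. Exon lengths are from GENCODE and may differ from the gene models used for counting.

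The wider peptide system was covered by 4 lists with 124 genes, of which 66 were tested. In the OB 10 of the 66 were called (15.2%, against 8.04% of all genes), in the CX 3 (4.55%, against 2.77%) and in the BS 6 (9.09%, against 9.03%). None was called in the HC by limma (against 1.28% of all genes), where 8 had an unadjusted p below 0.05. There edgeR called 1 (against 188 of all 13875 genes) and DESeq2 2 (against 419). Of the genes called, 5 in the OB and 2 in the BS reached the low-count filter only through the samples in which they were high. Such genes could be tested only if they differed, so they are given below by their values alone, and nothing is read from the counts.

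Of 47 other peptide precursors only 8 were tested, since 39 did not reach the filter, 9 of them without a read. Trh, the precursor of thyrotropin-releasing hormone, reached the filter only through the OB, with 3.26, 54.5 and 35 there and 1 read in the 8 other samples. Pthlh, parathyroid hormone-like hormone, reached the filter only through the BS, with 62.0, 20.0 and 18.9 against at most 13.1 elsewhere. Apln, the precursor of apelin, was called in the CX (log2 fold change 1.19, unadjusted p = 0.005409, adjusted p = 0.314 from limma), with a mean of 1429.9 there and of 526 to 894 in the other regions. Igf2, a growth factor, was lower in the OB (-2.78, adjusted p = 0.03802 from limma), with a mean of 227 there. The CX was low as well, with a mean of 367, against 2472 in the HC and 3316 in the BS.

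Of 37 peptide receptors 21 were tested, with 4 called in the OB, 2 in the BS and none in the HC or CX. Ednrb, the endothelin receptor abundant in astrocytes, was higher in the OB (1.06, standard error 0.26, adjusted p = 0.03222 from limma), with a mean of 5582 there and of 2429.9 to 3455 in the other regions. Vipr2, a receptor for vasoactive intestinal peptide, reached the filter only through the OB, with 29.3, 63.9 and 18.3 against at most 12.6 elsewhere. Npr3, the natriuretic peptide clearance receptor, was called higher in the BS (3.49, adjusted p = 0.09318 from limma), with 144 to 858 there. The HC, with 121 to 280.3, overlapped with the BS, while the CX had 18.4 to 27.6 and the OB 5.43 to 8.68. Crhr2, a receptor of urocortins, had no read in any OB or CX sample, while hippocampal samples had 21.9 to 37.1 and brainstem samples 18.0 to 78.8. Ednra was called lower in the BS (-0.78, adjusted p = 0.0729 from limma). Npy1r, a receptor of neuropeptide Y, was not called, with 4.74 to 23.2 in the OB and 125 in HC sample 1.

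Of 22 granins and processing genes 21 were tested. Cpe, the carboxypeptidase that trims cut precursors, fell in the BS (-2.10, standard error 0.33, adjusted p = 0.001749 from limma), with a mean of 7623 there and of 24343 to 37839.9 in the other regions. The convertase Pcsk6 fell there too (-2.07, adjusted p = 0.000107 from limma), with a mean of 112 against 397 to 512. The astrocyte marker sum was low in BS samples 1 and 3, as given for Agt, and its part in these decreases was not tested. Cadps2, a factor for vesicle exocytosis, rose in the OB (3.08, standard error 0.40, adjusted p = 0.0004907 from limma) to a mean of 368 ± 40.4 (SD, n = 3). Qpct, which forms pyroglutamate at peptide ends, rose there as well (3.23, adjusted p = 0.006873 from limma) to 94.2 ± 19.7 (SD, n = 3). Scg3, a granin abundant in all regions, was called higher in the CX (1.48, adjusted p = 0.2554 from limma), with a mean of 15779.9. The convertases Pcsk1 and Pcsk2 of neuroendocrine cells were tested and not called in any region.

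Of 18 angiotensin enzymes and peptidases 16 were tested. Ace, angiotensin-converting enzyme, reached the filter only outside the OB, with means of 15.0 for the OB, 28.7 for the CX, 995 for the HC and 952 for the BS. Ace thus was high in the HC as well as the BS, and within the BS it was highest in sample 1, where Agt was lowest. Mme, the peptidase neprilysin, was higher in the OB (3.55, adjusted p = 0.02889 from limma), with 159, 73.4 and 191 there and at most 67.3 elsewhere. Ecel1, a related peptidase, reached the filter only through the BS, with 6.31, 22 and 16.8 there and reads in only 1 other sample. Ece2, an endothelin-converting enzyme, was called in the CX (1.78, adjusted p = 0.2995 from limma).

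Choroid plexus transcripts moved with Ace, Igf2, Npr3 and Crhr2. The 6 choroid plexus markers summed to 82.9 to 100.2 in the OB and 1709.6 to 4980.2 in the CX, but to at least 51112 in each HC and BS sample, and Folr1 had no read in the OB. BS sample 1, with the highest sum, also had the highest value of these 4 genes, and of Pthlh, among the BS samples. The part of choroid plexus cells in these differences was not tested.

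**Figure D5:**
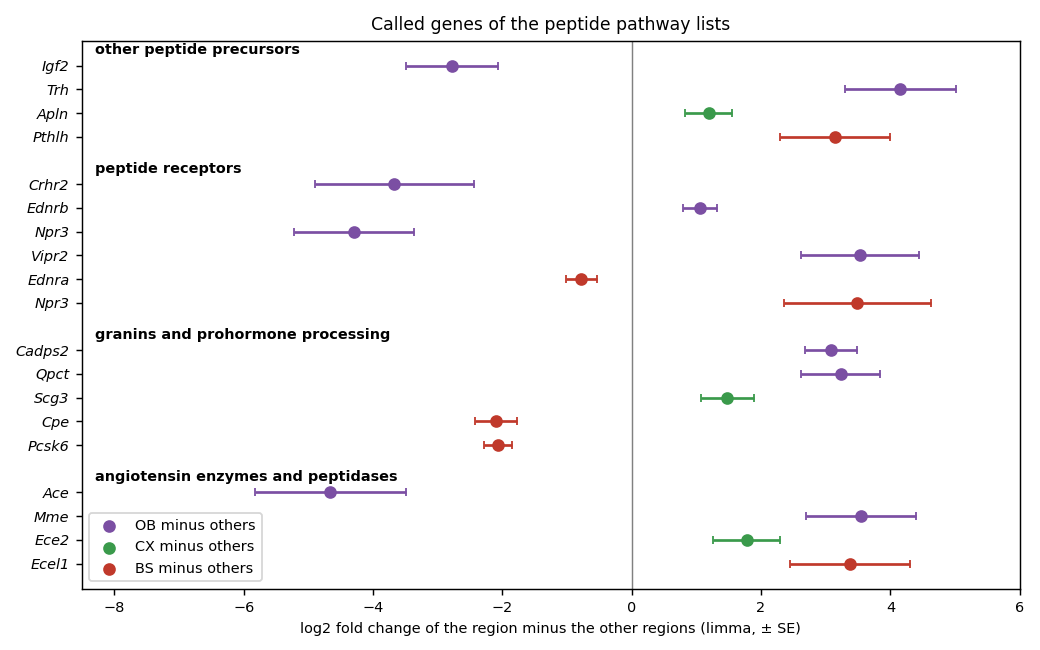
Log2 fold changes with limma's standard error for the genes of the 4 peptide lists that passed the calling rule, coloured by the region set against the others. The OB holds 10 of the calls, the BS 6 and the CX 3, and 5 of those in the OB (Ace, Crhr2, Npr3, Trh and Vipr2) and 2 in the BS (Ecel1 and Pthlh) reached the low-count filter only through the samples in which they were high.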

How the data were processed

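RNA of sorted cells was sequenced in 11 samples, grouped by the region in their titles. Per the labels and the study's methods, the authors mapped reads to mm10 with STAR 2.5.0a and normalized counts with DESeq2 1.20.0. The deposited unit is a normalized signal, a read count divided by a size factor. Divided by the smallest step of its sample, 100% of values came out whole (tolerance 0.01 reads, wider in proportion for high counts), which recovered the reads. Members and lists were chosen with earlier results of these data known.

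Genes passing filterByExpr of edgeR 4.0.16 (13875) were tested two-sided with limma 3.58.1 (R 4.3.3) on log2(value + 1), using a trend of variance on mean and Benjamini-Hochberg adjustment over all genes tested. Fold changes are on that scale and understate those of low genes. Named are all members, called genes of each list (at most 4 per list and region), and the 5 genes most correlated with Npy, Penk or Agt. Npy1r, Pcsk1, Pcsk2 and single markers were named after their values were seen. The alternatives were edgeR and DESeq2 1.42.0 on recovered reads, no filter, a pseudocount of 0.25, adjusted p-values, region means, a block for replicate number, and each sample left out. Ratios within samples, tested by exact permutation, and a call minimum in RPM were added later. Scripts were tested on simulated data. Coordinates are from GENCODE (GRCm38), promoters from RefSeq. Of the markers listed for olfactory ensheathing cells, 1 is not reported here and entered no sum.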

Additional observations from a re-analysis of the deposited data

How the results depend on the processing

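Agt and Cck in the BS were called under every alternative, and no called result was reversed. Cck reached the low-count filter only through samples outside the BS, so nothing is read from its calls in the filtered tests. Members called in the OB numbered 1, but 2 with edgeR (Cck and Scg2), 2 with DESeq2 (the same genes), 0 with adjusted p-values and 3 with region means (Agt, Cck and Scg2). For the HC the number was 0, but 1 with DESeq2 and 1 with region means (Scg2). DESeq2 found 4 members that differed among the regions (Sst in addition), against 3. With the replicate block the numbers stayed at 1 (OB), 0 (HC), 0 (CX), 2 (BS) and 3 (among regions), for the same genes. With the call minimum in RPM, chosen after seeing the data, the members called were also unchanged, at 1 (OB), 0 (HC), 0 (CX) and 2 (BS), while list genes called in the BS numbered 4 against 6. Deviations from the region means had r from -0.16 to 0.25 over 15 pairs of same-numbered samples, against -0.224 to 0.183 over 30 others. Between the OB and HC the same-numbered pairs had 0.195, 0.074 and 0.25, and the others -0.224 to 0.028. In the remaining pairs of regions the same-numbered samples had -0.16 to 0.109. Whether same-numbered samples share an animal or batch was not tested, and the labels tie no number to either. Leaving out 1 sample gave 0 to 2 members for the OB, 0 to 1 for the HC (1 without BS sample 1), 0 to 0 for the CX, 2 to 3 for the BS (3 without OB sample 3) and 2 to 3 among regions. The Npy difference then ran from 6.93 to 7.37 and the Penk difference from -4.07 to -2.78, and on a counts-per-depth scale they were 6.34 and -2.36. The cause of these changes was not tested.

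Over all genes, calls numbered 1116 (OB), 178 (HC), 384 (CX) and 1253 (BS). They numbered 630, 0, 2 and 737 with adjusted p-values. With edgeR they numbered 1137 (OB), 188 (HC), 296 (CX) and 1126 (BS). DESeq2 called 1484 (OB), 419 (HC), 591 (CX) and 1428 (BS), and region means gave 1585 (OB), 666 (HC), 1071 (CX) and 1960 (BS). The replicate block gave 1027 (OB), 149 (HC), 308 (CX) and 1144 (BS). The test among the regions called 2285 genes with limma, 2073 with edgeR and 3062 with DESeq2. Of the OB calls 51.6% were higher, and 41.3% with DESeq2. Without 1 sample the OB count fell as far as 717 (OB sample 2), the HC count to 110 (HC sample 2), the CX count to 131 (CX sample 1, where the lone CX sample left is assumed to vary like the other groups, as in both CX values without a CX sample) and the BS count to 802 (BS sample 1). Npy outside the OB, Penk in the HC, and Vip, Pdyn and Tac1 in all regions rest on few reads, which limits their order.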
